A study of Mus musculus with 24 samples.

Results

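The common transcriptional response to an ataxin-2-targeting CRISPR RNA (crRNA) was measured by pooling over 3 RNA-targeting effector proteins. Of the 24 RNA-seq libraries of the series, 18 were used: the 9 from cells given an effector with the mATXN2-targeting crRNA, and the 9 from cells given an effector with a non-targeted (NTG) crRNA. The libraries were chosen by their labels alone, and effector was kept as a block, so that each targeting library was compared with the controls of its own effector. All were made from Neuro2A, a mouse neuroblastoma line labelled wild-type, transiently transfected with plasmids that encode the effector and the crRNA and harvested at 48 hr. There were 6 groups of 3 independent biological replicates: RfxCas13d with NTG, RfxCas13d with mATXN2, HiFi-RfxCas13d with NTG, HiFi-RfxCas13d with mATXN2, DiCas7-11 with NTG and DiCas7-11 with mATXN2. Column names in the deposited table call the control arm EV and the targeting arm G12, where the sample titles give NTG and G10, and the names do not settle which plasmid the controls carried. The titles' name, NTG, is used throughout. The other 6 libraries, 3 of untransfected cells and 3 of cells treated with an ASO, an antisense oligonucleotide that targets ataxin-2, share no library with this comparison and are used only for levels set beside it. The sources used here do not state that transfected cells were sorted, so each library is a bulk measurement in which fewer cells and less RNA per cell cannot be told apart.

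RfxCas13d is a Cas13d nuclease that a crRNA guides to a complementary RNA, which is then cut, and HiFi-RfxCas13d is its high-fidelity variant N2V7. DiCas7-11 is a single-protein effector of another CRISPR family. Ataxin-2, encoded by Atxn2, is an RNA-binding protein that takes part in translation and in the assembly of stress granules, and it modifies the toxicity of TDP-43, an RNA-binding protein that aggregates in amyotrophic lateral sclerosis (ALS). A response shared by all effectors is of interest because each effector alone was measured in only 3 libraries per arm.

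Library totals lay between 13607843 and 19857305 counts, with medians of 16449119 in the mATXN2 arm and 16157975 in the NTG arm. Of 39253 genes listed, 13660 were tested, namely those with at least 0.5 CPM (edgeR's measure of a gene's counts relative to the library total) in at least 3 of the 18 libraries. Defining genes of sympathetic neuroblasts were present in both arms. Hand2 averaged 384.5 CPM with NTG and 387.2 CPM with mATXN2. Of 11 tested markers of the line, 1 fell, Elavl4, described with the neurite genes. The summed markers of astrocytes stayed between 0.12 and 0.676 CPM and those of microglia between 0.0599 and 0.374 CPM over the 18 libraries, and no gene of either list was high enough to be tested. Summed markers of oligodendrocytes lay between 13.8 and 17.8 CPM, of fibroblasts between 5.16 and 8.24 CPM and of endothelium between 5.98 and 9.2 CPM. In each of these lists 2 genes were tested and none was called. The NTG libraries of DiCas7-11 stood apart, since pairs of them differed per gene by 3.55 to 6.17 times counting noise in chi-square, where pairs in the other 5 groups differed by 1.64 to 2.63 times. Every pooled value includes these libraries. The number of pooled calls and the losses of some named genes are also given without DiCas7-11, but the lists and deciles are not.

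Atxn2 was lower in the targeting arm of every effector. Over the 9 NTG libraries its level was 112.0 CPM at the lowest, 119.7 at the median and 124.5 at the highest. Over the 9 mATXN2 libraries the lowest, median and highest values were 98.0, 102.9 and 115.6 CPM. The arms overlapped over all effectors, but within each effector every mATXN2 library lay below every NTG library. For RfxCas13d the mATXN2 replicates gave 115.6, 111.3 and 112.5 CPM, against 119.3, 121.4 and 124.5 CPM with NTG. HiFi-RfxCas13d gave 98.0, 100.7 and 102.8 CPM against 122.6, 112.0 and 121.6 CPM, and DiCas7-11 gave 101.9, 106.2 and 102.9 CPM against 115.9, 119.7 and 118.7 CPM. The gap between arms was therefore narrowest for RfxCas13d.

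In the pooled fit Atxn2 fell by 0.18 on the log2 scale (standard error 0.023, adjusted p = 9.29e-06, edgeR's quasi-likelihood test with Benjamini-Hochberg adjustment), a fall of 11.6%. A two-sided exact permutation test of log2 CPM, in which arm labels were exchanged within each effector in all 8000 ways, gave p = 0.00025, the smallest value it can give. With 3 libraries against 3, a single effector cannot go below 0.10 in such a test. By effector the log2 fold change was -0.10 (RfxCas13d), -0.23 (HiFi-RfxCas13d) and -0.20 (DiCas7-11). The test of a difference between effectors gave an unadjusted p of 0.0496 and an adjusted p of 0.72. Beside these, Atxn2 stood at 122 ± 1.86 CPM (SD, n = 3) in untransfected cells and at 53.2 ± 2.79 CPM (SD, n = 3) with the ASO.

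**Figure D1:**
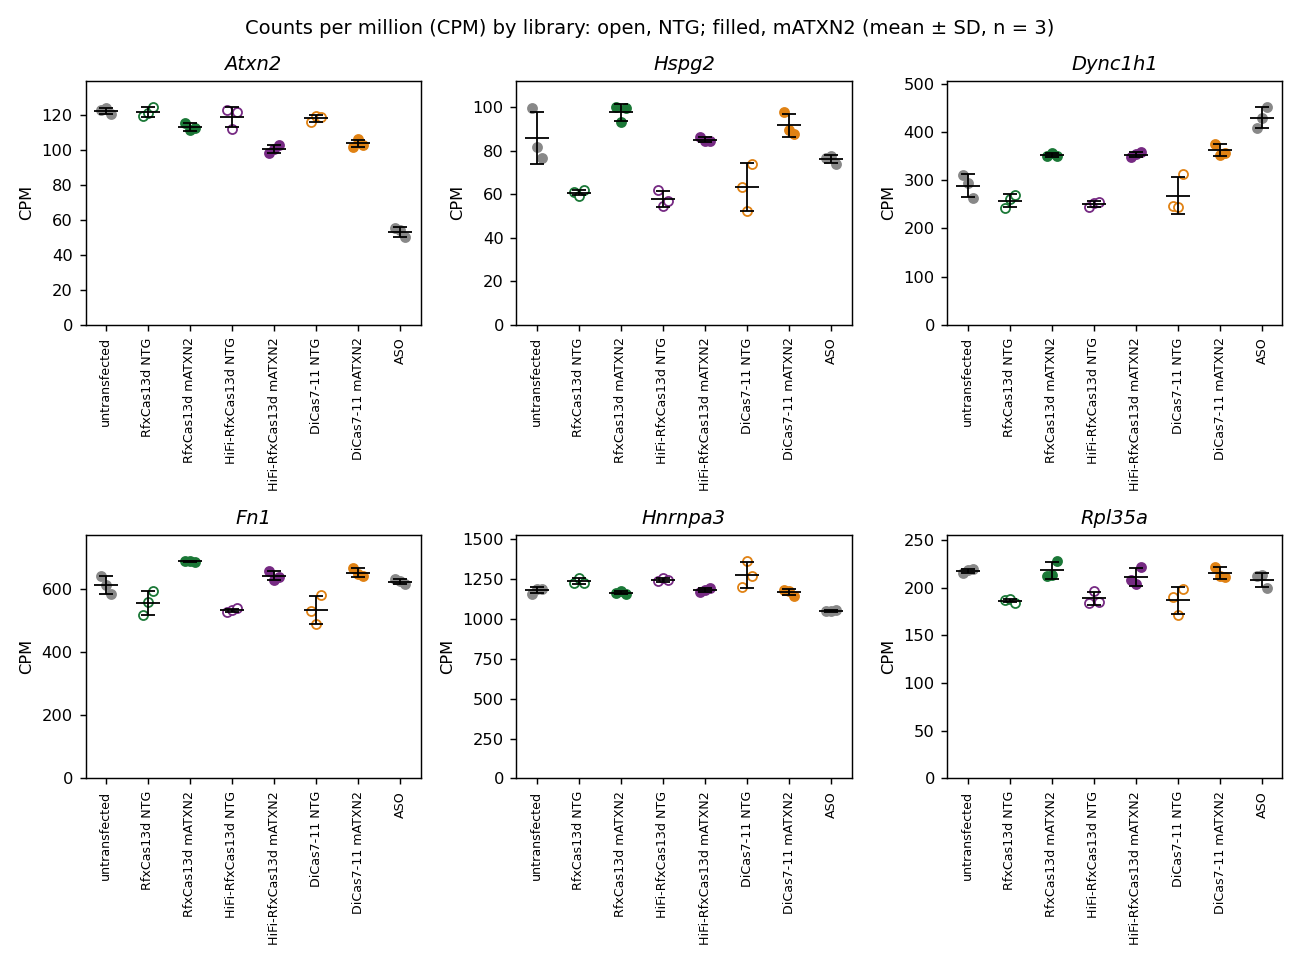
CPM of 6 genes in each of the 24 libraries, by group; open points are NTG libraries, filled coloured points mATXN2 libraries, and black bars the mean ± SD of 3. Atxn2 and Hnrnpa3 are lower, and Hspg2, Dync1h1, Fn1 and Rpl35a higher, in the mATXN2 libraries of each effector than in its NTG libraries.

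Pooling called 616 of 13660 genes (4.51%) at an adjusted p under 0.05, of which 358 rose (2.62%) and 258 fell (1.89%). The changes were small. The median log2 fold change was 0.12 among the rises and -0.09 among the falls, and only 14 called genes moved by more than 0.5. Rises reached further than falls: 34 genes rose by more than 0.3 and 9 fell by as much. The called genes that moved by more than 1 were the predicted genes LOC118568163 (mean of 4.61 counts), Gm35655 (14.8), Gm26799 (38.1) and Gm46965 (13.1), which are named because of their fold changes and were too low for their values to be described further. Without DiCas7-11, whose NTG libraries were uneven, 365 genes were called (263 rises and 102 falls), and without RfxCas13d 127 (113 rises and 14 falls), in each case with 6 libraries per arm.

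Each effector on its own, in a fit of 6 group means that share one spread, called fewer genes. RfxCas13d called 180 genes (1.32%), HiFi-RfxCas13d 39 (0.286%) and DiCas7-11 122 (0.893%). These counts moved widely when 1 library was left out, most for DiCas7-11, so their order and the overlaps below are unsteady. The ranges are given in the closing section on processing. Of the 616 pooled calls, 182 were also made by at least 1 effector and 434 by none, while 80 genes were called by an effector and not by pooling. The pooled test called 126 of the genes of RfxCas13d (70% of that list and 20.5% of the pooled list), 38 of those of HiFi-RfxCas13d (97.4% and 6.17%) and 97 of those of DiCas7-11 (79.5% and 15.7%). Over the 10864 genes with a mean of at least 50 counts, the median standard error of a log2 fold change was 0.034 in the pooled fit, against 0.057 to 0.058 for single effectors.

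The 3 effectors share no library, so their fold changes can be set side by side. Of the called genes, 607 (98.5%) moved the same way in all 3 effectors, as did 4838 of all genes tested (35.4%), but the pooled test itself favours genes that move alike. For 102 genes every mATXN2 library was higher than every NTG library within each effector (0.747% of genes tested), and for 50 every one was lower (0.366%). The pooled test called 149 of these 152 genes (1.11% of genes tested). Across the 10864 genes the Pearson correlation of log2 fold changes was 0.233 between RfxCas13d and HiFi-RfxCas13d, 0.113 between RfxCas13d and DiCas7-11 and 0.139 between HiFi-RfxCas13d and DiCas7-11, and Spearman's rho was 0.22, 0.25 and 0.146. These correlations are across genes, which are not independent replicates, and the points of each pair share the base composition and length of the gene.

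No gene passed the test of a difference between effectors by edgeR's quasi-likelihood F test after adjustment, and 935 (6.84%) had an unadjusted p under 0.05. DESeq2 called 1 gene and limma-trend 0 in the same test. A missing call does not show that the effectors acted alike.

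Rises and falls were ranked among called genes with an assigned name, a mean of at least 50 counts and 1 direction in all 3 effectors. The 10 largest rises so ranked were those of Hspg2, Lncppara, Ubr4, Lrp1, Dync1h1, Mir6236, Syne2, Bsn, Nptxr and Fat1. Hspg2, which encodes perlecan, a large proteoglycan of basement membranes, had the largest rise among the genes so ranked. Its level was 52.2, 61.2 and 74.1 CPM at the lowest, median and highest of the NTG libraries and 84.4, 89.6 and 100.1 CPM in the mATXN2 libraries, so the arms did not overlap. It rose by 0.59 on the log2 scale (standard error 0.042, adjusted p = 4.69e-10), with log2 fold changes of 0.69, 0.57 and 0.53 for RfxCas13d, HiFi-RfxCas13d and DiCas7-11. Dync1h1, the heavy chain of the motor cytoplasmic dynein, lay between 242.4 and 313.5 CPM with NTG (median 253.5) and between 347.2 and 376.1 CPM with mATXN2 (median 353.5). The highest NTG value came from DiCas7-11 NTG replicate 3, and all 9 mATXN2 libraries lay above it. Dync1h1 rose by 0.46 (standard error 0.033, adjusted p = 4.69e-10).

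Ubr4, a giant E3 ubiquitin ligase, lay between 198.0 and 281.9 CPM with NTG (median 220.5) and between 300.1 and 333.0 CPM with mATXN2 (median 316.3), and rose by 0.48. Lrp1, an endocytic receptor of the low-density lipoprotein receptor family, rose by 0.47 from 24.4 ± 2.07 to 33.9 ± 3.22 CPM (mean ± SD, n = 9), without overlap of the arms. Syne2, a nesprin that ties the nuclear envelope to the cytoskeleton, rose by 0.43 from 61.7 ± 6.24 to 82.96 ± 5.50 CPM. Fat1, a giant atypical cadherin, rose by 0.40 from 88.4 ± 9.08 to 117 ± 4.57 CPM. Bsn, which encodes bassoon of the presynaptic active zone, rose by 0.42 from a mean of 12.6 to 16.9 CPM, and here the arms overlapped over all effectors, with a highest NTG value of 16.97 and a lowest mATXN2 value of 14.26 CPM.

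Among the rises with the smallest p were also Fn1 and Fasn. Fn1, fibronectin, went from 541 ± 31.7 to 661 ± 23.2 CPM (SD, n = 9), a log2 fold change of 0.29 with an adjusted p of 8.86e-09. Fasn, fatty acid synthase, went from 677 ± 27.7 to 791 ± 15.4 CPM, a log2 fold change of 0.23 with the same adjusted p. The arms of both genes were apart, since the highest NTG values were 593.4 and 701.3 CPM and the lowest mATXN2 values 629.4 and 767.1 CPM.

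The other members of the 10 largest rises were less even. Nptxr, the neuronal pentraxin receptor, rose by 0.41, but its NTG libraries ranged from 35.6 to 88.96 CPM and its mATXN2 libraries from 47.7 to 92.7 CPM. Its adjusted p of 0.026 passed 0.05 without any 1 of 6 libraries, up to 0.064 without HiFi-RfxCas13d NTG replicate 3. Lncppara, a long non-coding RNA gene, and Mir6236, annotated as a microRNA gene, rose by 0.52 and 0.45 from means of 2.52 and 6.27 CPM. The log2 fold changes of Mir6236 were 0.18, 0.72 and 0.44 in the order of effectors above, and those of Lncppara 0.40, 0.25 and 0.92. Lncppara lost its call without DiCas7-11 (0.33, adjusted p = 0.196) and without RfxCas13d (adjusted p = 0.079), and Mir6236 lost its call without HiFi-RfxCas13d (0.31, adjusted p = 0.086). LOC118567335 had the largest rise of the predicted genes named by the rule, 0.66 from a mean of 2.43 CPM, and lost its call without RfxCas13d (0.54, adjusted p = 0.080).

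**Figure D2:**
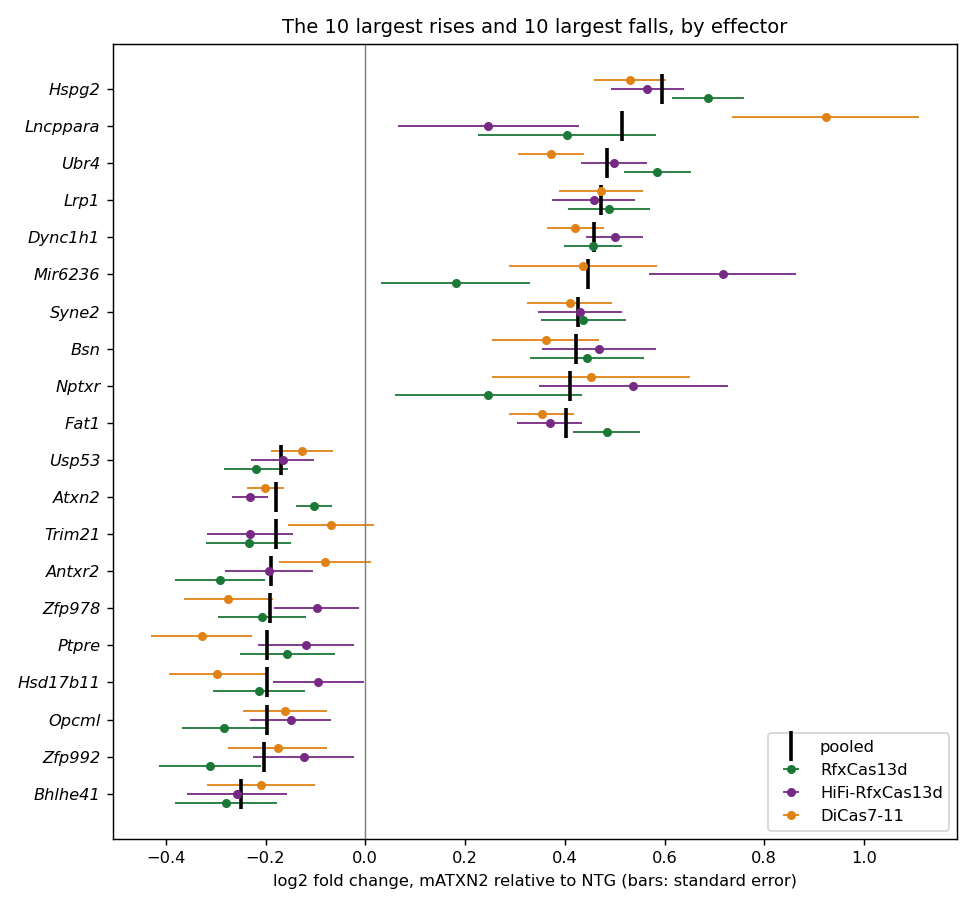
Log2 fold change of mATXN2 relative to NTG for the 10 largest rises and 10 largest falls among called genes with an assigned name, a mean of at least 50 counts and 1 direction in all 3 effectors. Points with bars are single effectors with their standard errors and black ticks the pooled values, which run from 0.40 to 0.59 for the rises and from -0.25 to -0.17 for the falls.

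Levels in untransfected cells are given here for some of the called genes. Hspg2 stood at 86.1 ± 12.02 CPM (SD, n = 3) and Lrp1 at 33.8 ± 3.37 CPM in untransfected cells, near the mATXN2 means of 91.5 and 33.9 CPM and above the NTG means of 60.6 and 24.4 CPM. Fn1 stood at 613 ± 27.8 CPM in untransfected cells, between the NTG and mATXN2 means. For Dync1h1 the untransfected mean of 289 ± 24.2 CPM also lay between the arms, while Fasn at 575 ± 37.1 CPM lay below both. Among called genes described below, Hnrnpa3 at 1181 ± 17.9 CPM and Rpl35a at 218 ± 2.15 CPM lay near the mATXN2 means of 1173 and 215 CPM. Their NTG means were 1255 and 187 CPM. Eps15 at 145 ± 2.92 CPM and Lima1 at 155.5 ± 4.64 CPM lay above both arms. These levels are descriptive: the NTG libraries serve in both comparisons, and transfection itself separates the untransfected cells from the rest.

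The falls were smaller and closer to the spread between libraries. Bhlhe41, a transcriptional repressor of the circadian clock, had the largest fall among genes ranked by the same limits as the rises. It stood 0.25 below NTG on the log2 scale, with an adjusted p of 0.011. Its NTG libraries ranged from 9.27 to 14.5 CPM and its mATXN2 libraries from 8.59 to 11.3 CPM. Opcml, a cell adhesion molecule of the IgLON family, fell by 0.20 and Usp53, a protein of the ubiquitin-specific protease family, fell by 0.17 from 27.4 ± 0.96 to 24.4 ± 1.90 CPM. Usp53 and Zfp992 were not called with GC content corrected, at -0.13 and -0.14 (adjusted p of 0.060 and 0.204). Hsd17b11, Ptpre, Antxr2, Trim21 and the zinc finger genes Zfp992 and Zfp978 fell by 0.18 to 0.20. Zfp992 and Zfp978 belong to a large family of near-identical sequences, so reads may have been split between copies and their values are uncertain.

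The calls of several of these falls lay close to the threshold, and leaving out 1 library was often enough to lose them. The adjusted p of Zfp992 and of Ptpre passed 0.05 without any 1 of 13 of the 18 libraries, with the highest values 0.098 (without RfxCas13d mATXN2 replicate 3) and 0.097 (without DiCas7-11 mATXN2 replicate 3). For Antxr2, Zfp978, Trim21 and Hsd17b11 this held for 10, 9, 9 and 8 libraries. Llph-ps2, the predicted gene with the largest fall by the rule, fell by 0.38 and lost its call without 2 libraries, with an adjusted p of 0.056 without DiCas7-11 NTG replicate 2. Without RfxCas13d none of the other 9 largest falls kept its call, and Atxn2 alone of the 10 did.

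The falls with the smallest p were those of Atxn2, Eps15, Lima1, Emp1 and Sparc. Eps15, an adaptor of clathrin-mediated endocytosis, went from 139 ± 5.49 to 129 ± 3.69 CPM (SD, n = 9) and fell by 0.11 (adjusted p = 0.000472, edgeR's quasi-likelihood test). Within every effector each mATXN2 library of Eps15 lay below each NTG library, and its log2 fold changes were -0.13, -0.11 and -0.09 in the order of effectors above. Lima1, an actin-binding LIM protein, and Sparc, a secreted matrix glycoprotein, fell by 0.12 each, and Emp1, an epithelial membrane protein, fell by 0.11. Their calls were lost without RfxCas13d, when the log2 fold changes were -0.10, -0.10 and -0.09, while Eps15 kept its call.

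Of 79 genes named by the rule, 23 kept their call and direction in every setting that gave them an adjusted p: Atxn2, Eps15 and Hnrnpa3 among the falls, and Hspg2, Ubr4, Lrp1, Dync1h1, Syne2, Bsn, Fat1, Fn1, Fasn, Kmt2a, Kmt2b, Kmt2d, Hcfc1, Ep400, Ahnak, Herc1, Herc2, Trrap, Rpl35a and Rps19 among the rises. DESeq2, 1 of these settings, gave Lrp1 and Bsn no adjusted p. With coding length and GC content corrected together, an alternative chosen after seeing the data, Hspg2 stood at 0.41 on the log2 scale, Dync1h1 at 0.29, Ubr4 at 0.29, Lrp1 at 0.29, Fn1 at 0.20 and Fasn at 0.12, and Atxn2 at -0.20.

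Long coding sequences and GC-rich transcripts were more frequent among the rises than among all genes tested, and AT-rich transcripts more frequent among the falls. Coding length and GC content came from GENCODE M21 (build GRCm38), matched by Entrez identifier, whereas the deposited table was made on GRCm39, and 87.9% of genes tested had a coding length. The median coding length was 4287 bases among the rises and 1904 among the falls, against 1413 over all genes tested. The median transcript GC content was 53.6% among the rises and 43.0% among the falls, against 50.7% over all. Genes were split into deciles of each property. In the longest decile, with coding sequences of 3528 bases or more, 186 of 1200 genes rose (15.5%) and 26 fell (2.17%). In the lowest GC decile, 42.1% or less, 99 of 1217 genes fell (8.13%) and 4 rose (0.329%), where in the highest, 43 rose (3.53%) and 1 fell (0.0822%). Median log2 differences from untransfected cells in the lowest GC decile were 0.052 with NTG and 0.009 with mATXN2. For the highest GC decile they were -0.073 and -0.043, and for the longest decile -0.008 and 0.025.

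Both properties showed in the counts. Among genes of the longest decile with a GC content above the median, 130 of 612 rose (21.2%) and 2 fell, and among those at or below it, 56 of 588 rose (9.52%) and 24 fell (4.08%). A second, smaller group of rises lay at the other end, since in the shortest decile, with coding sequences of 552 bases or less, 54 of 1209 rose (4.47%) and 9 fell. The middle of the length range held few rises, with 3 of 1204 genes (0.249%) in decile 7.

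To show the difference in composition, the 2 of the 10 largest rises with the highest transcript GC content and the 2 of the 10 largest falls with the lowest are given as the middle 120 bases of their coding sequence from GENCODE M21, 5′ to 3′ on the gene's own strand, with each G and C in capitals. Both falls lost their calls with GC content corrected, as given above, and both rises kept theirs. Hspg2 lies on the plus strand (chr4:137468769-137570630, GRCm38) and Bsn on the minus strand (chr9:108096022-108190384), Zfp992 on the plus strand (chr4:146449023-146470292) and Usp53 on the minus strand (chr3:122931493-122984510). The stretch of Hspg2 spans 2 coding exons (chr4:137541486-137541692) and has a GC content of 67.5%, and those of Bsn (chr9:108112579-108112698), Zfp992 (chr4:146466623-146466742) and Usp53 (chr3:122949623-122949742) lie in 1 exon each and have 63.3%, 32.5% and 46.7%.
Hspg2, rise of 0.59: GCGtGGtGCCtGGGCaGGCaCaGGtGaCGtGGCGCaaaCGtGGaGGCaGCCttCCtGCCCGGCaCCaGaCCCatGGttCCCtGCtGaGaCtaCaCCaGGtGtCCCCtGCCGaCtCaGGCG
Bsn, rise of 0.42: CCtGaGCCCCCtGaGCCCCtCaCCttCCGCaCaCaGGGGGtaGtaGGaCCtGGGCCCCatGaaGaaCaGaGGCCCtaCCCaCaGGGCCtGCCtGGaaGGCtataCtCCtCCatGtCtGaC
Zfp992, fall of 0.20: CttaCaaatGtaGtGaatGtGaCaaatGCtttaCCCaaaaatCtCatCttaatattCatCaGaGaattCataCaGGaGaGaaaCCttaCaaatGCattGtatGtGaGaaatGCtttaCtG
Usp53, fall of 0.17: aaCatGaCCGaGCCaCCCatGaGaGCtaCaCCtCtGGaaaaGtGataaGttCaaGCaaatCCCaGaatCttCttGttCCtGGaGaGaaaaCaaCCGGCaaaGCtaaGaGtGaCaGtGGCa

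The pattern was not the same in every library or effector. In the longest decile the median log2 fold change was 0.01 with RfxCas13d, 0.03 with HiFi-RfxCas13d and 0.03 with DiCas7-11. In the lowest GC decile it was -0.05, -0.02 and -0.07, and in the highest 0.04, -0.01 and 0.06, so the GC trend was smallest for HiFi-RfxCas13d, without a test of that difference. By library, the median ratio of the longest decile to the NTG mean of its effector, on the log2 scale and relative to all genes, lay between 0.013 and 0.040 in the mATXN2 libraries and between -0.031 and 0.039 in the NTG libraries. RfxCas13d NTG replicate 3 (0.024) lay above all 3 mATXN2 libraries of its effector, and DiCas7-11 NTG replicate 3 (0.039) within the range of its own. In the lowest GC decile the NTG libraries of DiCas7-11 were spread from -0.053 to 0.042, and replicate 1, the lowest, lay within the range of the mATXN2 libraries of that effector, -0.070 to -0.051.

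**Figure D3:**
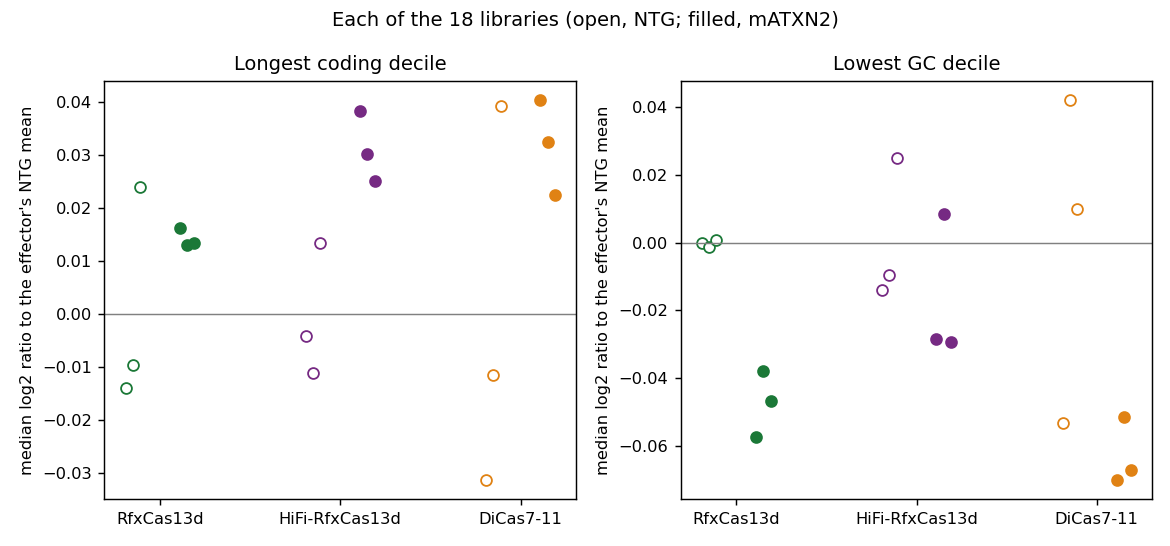
Median log2 ratio of each of the 18 libraries to the NTG mean of its effector, for the decile of genes with the longest coding sequences and the decile with the lowest transcript GC content, relative to the median of all genes. Filled mATXN2 points lie between 0.013 and 0.040 on the left and between -0.070 and 0.008 on the right, and open NTG points of DiCas7-11 spread widely on both sides.

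**Figure D4:**
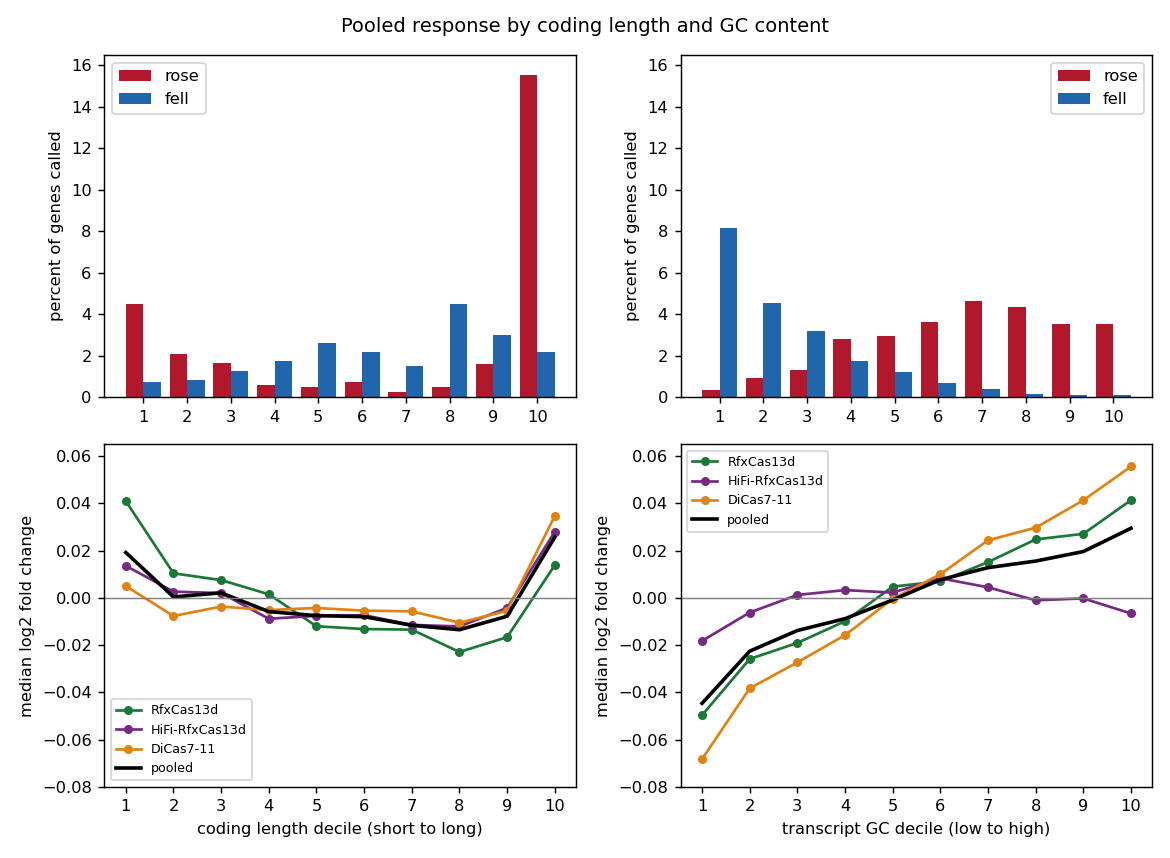
Percent of genes called as rises and falls (top) and median log2 fold change (bottom) in the pooled comparison and for each effector, by deciles of coding length and of transcript GC content. Rises peak at 15.5% in the longest decile and falls at 8.13% in the lowest GC decile.

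When a smooth curve of each library on GC content was removed, 393 genes were called (277 rises, 70.5%, and 116 falls), and with coding length alone 504 (225 rises, 44.6%, and 279 falls), against 58.1% rises without correction. With transcript length the counts were 263 rises (46.9%) and 298 falls. With both removed, 301 genes were called (165 rises and 136 falls), and 220 of them were among the 616. Beyond these corrections, the part of length and composition in the calls was not tested.

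Genes of very long proteins were the lists with the highest shares of rises, together with the H3-K4 methyltransferases. Of 19 tested genes for giant cytoskeletal and membrane proteins, 14 rose (73.7%) and none fell, beside 2.62% and 1.89% of all genes tested, and the list's median log2 fold change was 0.22, beside -0.00 over all genes. Besides Dync1h1, Lrp1 and Fat1 it holds Ahnak, a giant scaffold protein, which went from 123.4 ± 15.3 to 156 ± 12.1 CPM (SD, n = 9) and rose by 0.34. The other 5 did not pass, with log2 fold changes from -0.13 to 0.16. With both corrections 9 of the 19 genes still rose and the median was 0.06.

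Of 14 genes for giant ubiquitin ligases and kinases related to PI3K, 8 rose (57.1%) and none fell, with a median of 0.17. Trrap, a pseudokinase scaffold of histone acetyltransferase complexes, rose by 0.39 from 164 ± 14.8 to 215 ± 10.5 CPM. Herc2 and Herc1, ubiquitin ligases with HECT domains, rose by 0.37 and 0.26. Huwe1, Mtor, Mycbp2 and Smg1, the remaining rises, are counted and not described. With both corrections 7 rose, 1 fell and the median was 0.05.

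The H3-K4 methyltransferases, which place the activating methyl marks of histone H3 lysine 4, rose in 5 of 6 genes (83.3%), with a median of 0.19. All of these lists were chosen with earlier results of these samples known, so their directions are not independent evidence. Kmt2d had the largest rise, 0.39, and its levels of 109.2, 117.4 and 134.8 CPM (lowest, median and highest with NTG) did not reach those with mATXN2, 142.8, 154.9 and 168.9 CPM. Kmt2a and Kmt2b rose by 0.26 and 0.22, with log2 fold changes between 0.18 and 0.29 in every effector. Kmt2c rose by 0.14. Setd1b was the other call, at 0.16, and Setd1a had a log2 fold change of 0.04 with an adjusted p of 0.39. With both corrections 3 of the 6 rose, and Kmt2c turned to -0.02 (-0.03 with coding length alone).

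Of 12 tested genes for other subunits of the same complexes, 1 rose (8.33%, beside 2.62% of all genes tested) and none fell, with a median of 0.01. This list was not tested against that of the methyltransferases. The rise was that of Hcfc1, a large host cell factor, which went from 222 ± 10.2 to 252 ± 10.9 CPM and rose by 0.18. Those subunits have a median coding length of 1860 bases, against 10000 for the methyltransferases.

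Chromatin remodelers and coactivators rose in 10 of 23 genes (43.5%), and none fell, with a median of 0.08. Ep400, the ATPase of a complex that exchanges histone variants, rose by 0.27 from 118 ± 7.70 to 142 ± 5.15 CPM, and the remodeler Srcap rose by 0.17. Arid1a, a subunit of the BAF complex, rose by 0.14. Under both corrections the count was 1 rise and 1 fall, the median 0.01, and Srcap and Arid1a lost their calls at 0.04 and 0.06.

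Basement membrane genes were mixed. Of 12 tested, 3 rose (25%) and 1 fell (8.33%), with a median of 0.03. Agrn, the proteoglycan agrin, and Lama5, a laminin chain, rose with Hspg2, by 0.11 and 0.21, and Sparc fell. Agrn and Lama5 lost their calls under both corrections, at 0.03 and 0.05, and when HiFi-RfxCas13d was left out, and Agrn also without RfxCas13d.

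Genes of short proteins formed the second group of rises. Of 78 cytosolic ribosomal protein genes, 26 rose (33.3%) and none fell, with a median of 0.03. Rpl35a, a protein of the large subunit, had the smallest p. Its levels were 170.9, 187.1 and 199.1 CPM (lowest, median and highest with NTG) and 203.5, 212.5 and 228.1 CPM with mATXN2, with no overlap, and it rose by 0.20 (adjusted p = 3.91e-06). Rps19 and Rpl39 rose by 0.14 and 0.13. Both overlapped between arms over all effectors, Rps19 only narrowly, with a highest NTG value of 303.9 and a lowest mATXN2 value of 303.2 CPM. Pseudogene copies of ribosomal protein genes are common, so reads may have been split among them.

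The ribosomal count depended on the setting. Without RfxCas13d 4 of 78 rose, and medians for the single effectors were 0.05, 0.03 and 0.01. With transcript length corrected 8 rose and 7 fell, with coding length corrected 19 rose and 3 fell, and with coding length and GC content corrected 9 rose and 5 fell. Rpl35a and Rps19 kept their calls throughout.

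Nuclear-encoded subunits of oxidative phosphorylation rose in 13 of 83 genes (15.7%) and none fell, with a median of 0.05. Ndufab1 of complex I rose by 0.14, Uqcrq of complex III by 0.11, and Cox6c of complex IV and Atp5g3 of the ATP synthase by 0.09 each. Without RfxCas13d none of the 83 was called, with 6 libraries per arm. With both corrections 4 of the 83 rose, and Uqcrq and Cox6c lost their calls at 0.07 and 0.06, as they did with coding length alone. Cox6c and Atp5g3 also lost theirs with transcript length corrected, at 0.05 each. Mitochondrial ribosomal proteins rose in 5 of 78 genes (6.41%), with a median of 0.03, and the named ones, Mrpl12, Mrps24, Mrps28 and Mrps14, rose by 0.07 to 0.14. Each of these 4 lost its call without some single library, 5 to 13 of the 18, and the highest adjusted p was 0.091 for Mrps14 without HiFi-RfxCas13d NTG replicate 3.

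Splicing factors were the class with the most falls. Of 30 SR proteins and hnRNPs, which bind pre-mRNA and steer splicing, 7 fell (23.3%) and none rose, with a median of -0.03. Hnrnpa3 went from 1255 ± 46.5 to 1173 ± 14.5 CPM (SD, n = 9), with a lowest NTG value of 1203 and a highest mATXN2 value of 1196 CPM, and fell by 0.10 (adjusted p = 0.00164). Srsf5 fell by 0.09 from 255 ± 6.53 to 239 ± 4.62 CPM, also without overlap of the arms. Hnrnph1 and Hnrnpr fell by 0.07 each, and the remaining falls were those of Hnrnpf, Hnrnpm and Srsf10. Without RfxCas13d 1 of the 30 fell, and with both corrections 2 fell and the median was -0.01.

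**Figure D5:**
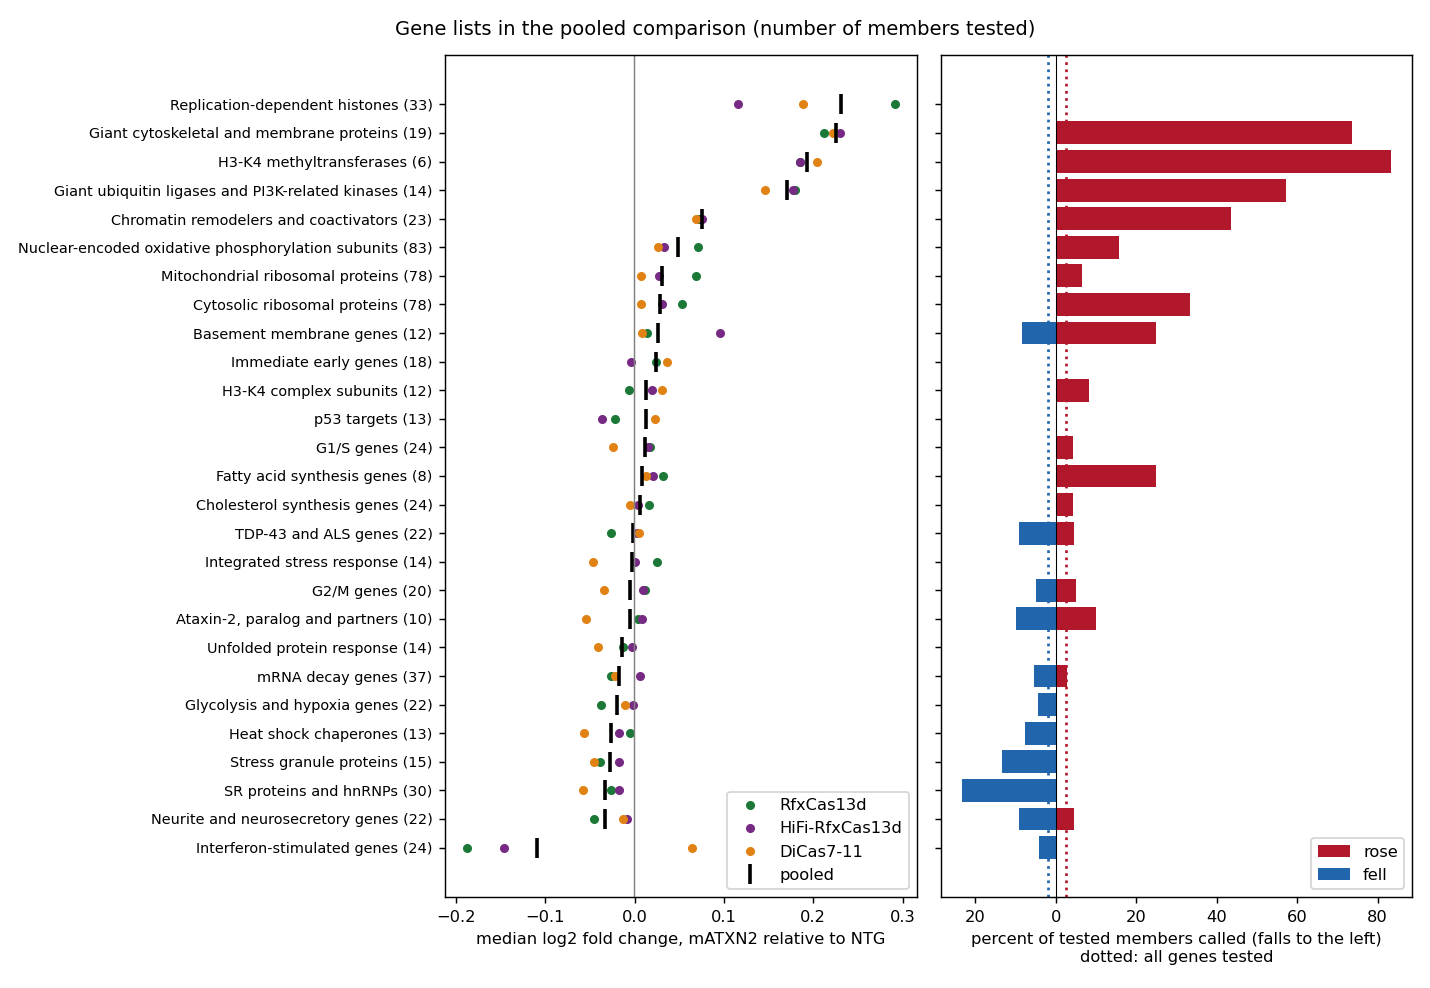
Left, the median log2 fold change of each gene list in the pooled comparison (black ticks) and for each effector (points), with the number of members tested in brackets; right, the percent of members that rose or fell, with dotted lines at 2.62% and 1.89% for all genes tested. The longest bars of rises are those of the H3-K4 methyltransferases, the giant cytoskeletal and membrane proteins and the giant ligases and kinases, and the longest bar of falls is that of the SR proteins and hnRNPs.

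Of Atxn2, its paralog and its binding partners, 10 genes were tested, and 1 rose and 1 fell (10% each, beside 2.62% and 1.89% of all genes tested). Atxn2 fell and Cbl, a ubiquitin ligase adaptor of receptor signalling, rose, by 0.14 from 118 ± 5.65 to 130 ± 3.83 CPM. At an unadjusted p under 0.05 in edgeR's test there were 5 of the 10, 2 higher and 3 lower, beside 17.5% of all genes tested. Cbl lost its call when RfxCas13d or HiFi-RfxCas13d was left out, with log2 fold changes of 0.13 and 0.11. The paralog Atxn2l had a log2 fold change of 0.04 (adjusted p = 0.14), Pabpc1, the poly(A)-binding protein that ataxin-2 binds, -0.05 (adjusted p = 0.12), and Tardbp, which encodes TDP-43, -0.04 (adjusted p = 0.16). The helicase Ddx6 and Lsm12 stood at -0.00.

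Stress granule proteins fell in 2 of 15 genes (13.3%), and none rose, with a median of -0.03. Nufip2, an RNA-binding protein, fell by 0.06. It lost its call without 3 single libraries, with an adjusted p of up to 0.062 (without RfxCas13d NTG replicate 3), and no gene of the list was called with both corrections. Of 22 genes linked to TDP-43 and ALS, 1 rose (4.55%) and 2 fell (9.09%), beside 2.62% and 1.89% of all genes tested. The kinase gene Nek1 fell by 0.10 and Unc13a, a synaptic vesicle priming protein, rose by 0.11. Nek1 and Unc13a lost their calls without 8 and 3 single libraries, up to adjusted p-values of 0.066 (without DiCas7-11 mATXN2 replicate 2) and 0.056 (without RfxCas13d mATXN2 replicate 1), and neither was called with both corrections.

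Pathways of stress and growth showed few calls. None of 14 genes of the integrated stress response, 14 of the unfolded protein response, 13 targets of p53 and 18 immediate early genes was called by edgeR's quasi-likelihood test, with medians of -0.00, -0.01, 0.01 and 0.02, and DESeq2 and limma-trend called none either. At an unadjusted p under 0.05 in edgeR's test the counts were 2, 1, 4 and 4, beside 2393 of all 13660 genes tested (17.5%). Of 13 heat shock chaperones only Hspa9, the mitochondrial Hsp70, was called, with a fall of 0.05 that did not hold without 12 of the single libraries (adjusted p of up to 0.079, without RfxCas13d mATXN2 replicate 3). Of 24 interferon-stimulated genes, Mx1 fell, from a mean of 2.89 to 2.06 CPM, and the median was -0.11, with -0.19, -0.15 and 0.06 in the order of effectors above. Mx1 lost its call when any 1 of the 3 effectors was left out, at -0.53 to -0.45. None of 33 replication-dependent histone genes was called by edgeR or limma-trend and 1 rose by DESeq2. In edgeR's test 7 of the 33 had an unadjusted p under 0.05, all higher, not far from the 17.5% of all genes tested. In this list 25 genes stood higher, as did 6743 of all 13660 genes tested. Its median was 0.23, at summed levels of 87.7 to 105 CPM with NTG and 102 to 112 CPM with mATXN2.

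Lists of lipid synthesis and the cell cycle had 1 or 2 calls each. Fasn and Acaca, the enzyme that makes malonyl-CoA, rose among 8 fatty acid synthesis genes (25%, beside 2.62% of all genes tested). Acaca rose by 0.11, and the list's median was 0.01. Acaca lost its call without RfxCas13d (0.10) and, at 0.04, with coding length corrected alone or with GC content. Of 24 cholesterol synthesis genes 1 rose and none fell, with a median of 0.01, and without RfxCas13d none was called. Of 24 G1/S genes Fen1, a flap endonuclease of replication, rose by 0.11, a call lost without HiFi-RfxCas13d (0.11) or DiCas7-11 (0.08). Of 20 G2/M genes the proliferation marker Mki67 rose by 0.09 and the spindle checkpoint kinase Bub1 fell by 0.06. Bub1 and Mki67 lost their calls without 12 and 3 single libraries (adjusted p of up to 0.082 and 0.056, without RfxCas13d mATXN2 replicate 1 and RfxCas13d NTG replicate 1), and Mki67 turned to -0.01 with coding length corrected and -0.00 with both corrections. Of 22 glycolysis and hypoxia genes Ero1a fell by 0.09. Over all effectors its arms overlapped widely, from 128.3 to 194.8 CPM with NTG and from 123.6 to 179.8 CPM with mATXN2. Ero1a lost its call without any 1 of 11 single libraries (adjusted p of up to 0.077, without DiCas7-11 mATXN2 replicate 2). The call was also lost without any 1 of the 3 effectors and with every correction for length or GC content.

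Of 37 mRNA decay genes, 1 rose (2.7%) and 2 fell (5.41%), beside 2.62% and 1.89% of all genes tested. Dcp2, the decapping enzyme, rose by 0.07, and the nuclear exonuclease Xrn2 and the deadenylase subunit Pan3 fell by 0.07 and 0.09. Xrn2 lost its call without RfxCas13d or DiCas7-11 and with GC content corrected (-0.05). Dcp2 and Pan3 lost their calls without 13 and 5 single libraries (adjusted p of up to 0.088, without HiFi-RfxCas13d NTG replicate 1, and 0.064, without DiCas7-11 NTG replicate 2). Of 22 neurite and neurosecretory genes, Map1b, a microtubule-associated protein with a long coding sequence, rose by 0.14 from 2556 ± 193 to 2810 ± 211 CPM (SD, n = 9). Elavl4, a neuronal RNA-binding protein, fell by 0.07 and Syt1, a calcium sensor of synaptic vesicles, by 0.09. Map1b lost its call without HiFi-RfxCas13d (0.11, adjusted p = 0.051), and Elavl4 without RfxCas13d or DiCas7-11 and with GC content corrected (-0.03). Syt1 lost its call without 10 single libraries, up to an adjusted p of 0.089 without RfxCas13d mATXN2 replicate 3.

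The ASO gives another way to lower Atxn2, measured in libraries that the pooled comparison did not use. Between ASO and untransfected cells, 5941 of 13899 genes were called (42.7%), 2921 higher (21%) and 3020 lower (21.7%). Of the 358 pooled rises, 177 were called higher (49.4% of the rises and 6.06% of the genes higher with the ASO) and 59 lower (16.48%). Of the 258 pooled falls, 125 were called lower (48.4% of the falls and 4.14% of the genes lower with the ASO) and 33 higher (12.8%). Here the ASO and the treatment of cells with it cannot be told apart, since the controls were untransfected. The ASO comparison also had a trend with coding length, with median log2 fold changes of 0.075 in the longest decile and -0.082 in the shortest. The part of that trend in these shares was not tested.

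Named genes differed in this respect. Dync1h1, Ubr4 and Kmt2d had log2 fold changes of 0.53, 0.60 and 0.84 with the ASO and Fasn of 0.48, all called by edgeR's quasi-likelihood test. Hspg2 went the other way, at -0.22 (adjusted p = 0.018), and Fn1 and Lrp1 had log2 fold changes of -0.02 and -0.00 (adjusted p of 0.76 and 0.98). Among the falls, Eps15, Lima1, Sparc and Hnrnpa3 were also lower with the ASO, at -0.21, -0.43, -0.40 and -0.21. Rpl35a, a pooled rise, was lower with the ASO at -0.10 (adjusted p = 0.036), and the median of the cytosolic ribosomal list was -0.12.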

How the data were processed

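RNA-seq was analysed for 18 of 24 samples of Neuro2A cells, grouped by effector and crRNA from their titles. The authors quantified reads with Salmon (version 1.5.2 per the submitters' processing notes, which also name R 4.2.2 and GRCm39), correcting for sequence and GC bias. Transcripts were collapsed by tximport (lengthScaledTPM). The deposited table therefore holds expected counts whose totals still follow library size. The depth per sample is given with the results. Because the methods used limma-trend over all groups, that test was run as an alternative.

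Expected counts were rounded to whole numbers and tested with edgeR (version 4.0.16 in R 4.3.3): TMM normalization, a minimum of 0.5 CPM in 3 or more of the 18 libraries, a model of effector and arm, the quasi-likelihood test and Benjamini-Hochberg adjustment over all genes tested, with a threshold of 0.05. CPM are edgeR's counts relative to the library total. P-values measure the spread between these samples, which the study's methods describe as independent biological replicates. Alternatives used DESeq2 (version 1.42.0), limma (version 3.58.1, prior count of 3), other filters and normalization, a replicate block, other sets of samples, leaving out each library or effector, and lowess curves (span 0.3) on length and GC content. Correction for both together was chosen after seeing the data. Scripts were tested on simulated data.

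The members and gene lists were chosen with earlier results of these data known. Named genes were Atxn2, then, among called genes averaging 50 counts or more and with the same direction in all 3 effectors, the 10 largest changes and 5 smallest p-values in each direction (of predicted genes only the largest change in each direction), and up to 4 called members of each list by smallest p (the test between effectors gave none). Genes outside this rule were named after their values were seen. The crRNA sequences and mitochondrially encoded genes were not analysed here. Some genes that the rule names are not reported here.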

Additional observations from a re-analysis of the deposited data

Results flagged for a closer look

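Among the 79 named genes in the 2 arms, 158 sets of 9 libraries were examined for a single library far from the rest by Dixon's test. Each library was first centred on the mean of its own effector in that arm. Of these sets, 2 held such a library. Chance alone gives about 1 in 20 for independent values. The 9 centred values are not independent, so that rate and the critical value are only a guide. Both concern Elavl4. DiCas7-11 mATXN2 replicate 1 was the lowest of the 9 mATXN2 libraries at 362 CPM. Its gap to its neighbour was 0.519 of the whole range after centring. Before centring, RfxCas13d mATXN2 replicate 2 lay close to it at 362.5 CPM. DiCas7-11 NTG replicate 2 was the highest of the 9 NTG libraries at 432 CPM, with a gap of 0.581 after centring. The critical value for 9 independent samples is 0.493. Without DiCas7-11 the log2 fold change of Elavl4 was -0.05 and its call was lost. Leaving out DiCas7-11 mATXN2 replicate 1 alone gave an adjusted p of 0.045 by edgeR's quasi-likelihood test.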

How the results depend on the processing

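The fall of Atxn2 kept its call in all settings run, between -0.22 without RfxCas13d and -0.16 without HiFi-RfxCas13d, and between -0.188 and -0.168 when 1 library was left out. Pooled calls numbered 127 (113 rises, 14 falls) without RfxCas13d, 386 (191 rises) without HiFi-RfxCas13d and 365 (102 falls) without DiCas7-11, where fewer samples enter. They numbered 393 (116 falls) with GC content corrected, 225 rises with coding length corrected, and 301 (165 rises, 136 falls) with both. DESeq2 called 742 genes (49.5% rises) and gave 17 of the 79 named genes no adjusted p. Leaving out 1 library gave 436 to 747 calls, 277 to 400 rises and 156 to 347 falls. The lowest numbers of falls came without DiCas7-11 mATXN2 replicate 3, RfxCas13d mATXN2 replicate 3 and RfxCas13d mATXN2 replicate 1 (156, 159 and 164). Single-effector calls ranged over 41 to 258 for RfxCas13d, 19 to 64 for HiFi-RfxCas13d and 16 to 582 for DiCas7-11, the last without DiCas7-11 NTG replicates 2 and 1. Without a filter on low counts they were 401, 188 and 333, and DESeq2 gave DiCas7-11 230. The test between effectors called 145 genes without the filter, 1 with at least 1 CPM in at least 9 libraries, 1 by DESeq2, and 0 to 4 when 1 library was left out. Where no construction is named, the cause was not tested.

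Within effectors, deviations of mATXN2 and NTG libraries with the same replicate number correlated at -0.1 to 0.215 over 10864 genes. Only 3 of 9 mATXN2 libraries correlated best with their own number. Whether the numbers pair samples is therefore not known, since low correlations cannot exclude it. Numbers shared across effectors were not compared, and in the longest decile NTG replicate 3 was the highest NTG library of each effector (0.024, 0.013 and 0.039). With a replicate block 529 genes were called, 496 of them among the 616, and the test between effectors called 5. Of the 79 named genes 11 lost their call with the block, among them Zfp992, Trim21, Nek1, Bub1, Dcp2, Pan3, Syt1, Mrps14 and Mrps28. With the replicate block and both corrections, 293 were called (159 rises, 134 falls). Kmt2c turned to -0.027 and Mki67 to -0.014 with coding length corrected, to -0.019 and -0.0023 with both corrections, and to -0.021 and -0.0023 with both and the block. Of 79 named genes 55 kept their call whichever library was left out, and 48 lost it without RfxCas13d. Of 918 list medians, 56 moved by more than their spread over effectors and 32 changed sign.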
